A study of Mus musculus with 18 samples.

Results

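Bach2, its antisense transcript Bach2os and the related gene Bach1 were examined in RNA from mouse optic nerve head, where the axons of retinal ganglion cells gather and exit the eye. Bach2 and Bach2os were chosen because earlier results of these data placed both higher in EDA-labelled libraries at both ages, and Bach1 was added as a relative for comparison. These are 3 of 55416 gene identifiers in the deposited tables, with 13 annotated transcript models between them, and all 3 passed the filter on low counts. The tissue was cut out by laser capture microdissection, in which a chosen area of a section is collected under a microscope. There were 3 libraries of B6.EDA+/+ and 5 of C57BL/6J at 22 months of age, and at 12 months there were 5 of each strain. No treatment is named in the labels. As background, B6.EDA+/+ mice carry a fibronectin gene altered so that the extra domain A (EDA) exon is always included, and C57BL/6J is the inbred strain used as their control. Nothing in the labels ties a library to an animal, so p-values reflect how far libraries spread within a group, part of which may be technical.

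As background, BACH2 and BACH1 are transcriptional repressors with a BTB domain and a basic leucine zipper. They bind DNA in pairs with small Maf proteins, at sites that NRF2 and AP-1 proteins also use. Heme binds both proteins and lowers their repression, and heme oxygenase 1 is the textbook target of BACH1. BACH2 is best known in lymphocytes, where it delays the plasma cell fate in B cells and restrains effector programmes in T cells, and it is also found in neurons. Bach2os is a long noncoding RNA gene read from the opposite strand of Bach2, and no role is stated for it here.

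The Bach2 gene lay on chromosome 4 from 32238804 to 32586108 on the plus strand of GRCm38, and Bach2os lay inside it on the minus strand from 32559680 to 32571708. Of the 2183 exonic bases of Bach2os, 537 (24.6%) were also exonic in Bach2. The library kit keeps no strand information, so reads from this overlap cannot be told apart by strand and were divided between both genes by estimate. The most abundant Bach2os model (ENSMUST00000136149, 687 bases) shared with Bach2 a stretch of 271 bases of coding exon, or 39.4% of that model. It is shown because the Bach2os values rest partly on it, on the plus strand at chr4:32563097-32563367 of GRCm38, with capitals for the 67 bases that the leading Bach2 model, called the short coding model below, leaves out.
Bach2 exon shared with Bach2os: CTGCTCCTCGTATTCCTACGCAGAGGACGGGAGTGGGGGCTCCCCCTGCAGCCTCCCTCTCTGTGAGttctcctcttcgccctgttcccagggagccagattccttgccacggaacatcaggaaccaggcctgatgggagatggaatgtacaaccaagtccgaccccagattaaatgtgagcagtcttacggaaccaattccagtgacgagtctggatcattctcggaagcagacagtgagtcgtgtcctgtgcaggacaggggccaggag
Under the annotation used, the capitals are exonic in Bach2os and in the longer coding models of Bach2, and not in its short coding model.

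The 250 bases before the RefSeq start of each gene are shown for their base composition and motifs. For Bach2 that start is an internal one and not the start of the leading model. They are RefSeq sequences of GRCm38.p6, each read 5′ to 3′ on its gene's strand, at chr4:32417185-32417434 for Bach2, chr4:32571663-32571912 for Bach2os and chr16:87698704-87698953 for Bach1. Capitals mark each C followed by G (CpG).
Bach2: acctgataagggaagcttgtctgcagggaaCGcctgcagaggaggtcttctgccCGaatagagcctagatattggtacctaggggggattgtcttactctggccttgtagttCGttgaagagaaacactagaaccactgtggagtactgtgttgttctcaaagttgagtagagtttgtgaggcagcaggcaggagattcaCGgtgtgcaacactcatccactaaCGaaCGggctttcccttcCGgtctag
Bach2os: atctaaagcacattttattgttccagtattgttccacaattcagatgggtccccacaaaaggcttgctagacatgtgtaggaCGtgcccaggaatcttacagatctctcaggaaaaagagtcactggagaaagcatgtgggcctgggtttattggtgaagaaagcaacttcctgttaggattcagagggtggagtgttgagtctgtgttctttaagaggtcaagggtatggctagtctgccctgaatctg
Bach1: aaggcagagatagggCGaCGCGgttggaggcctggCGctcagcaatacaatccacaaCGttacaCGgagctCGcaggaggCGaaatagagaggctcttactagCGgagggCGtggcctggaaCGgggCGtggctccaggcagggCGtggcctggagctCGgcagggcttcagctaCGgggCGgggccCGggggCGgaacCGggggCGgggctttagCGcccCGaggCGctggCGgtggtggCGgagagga
The Bach2os window held 1 CpG and 45.2% G and C, the Bach2 window 7 CpG and 50.4%, and the Bach1 window 25 CpG and 69.2%. Among 32851 RefSeq windows of the same length the median was 6 CpG, and 7.9% had fewer than Bach2os while 89.3% had fewer than Bach1. The Bach2 window precedes the start of an internal-start coding model (ENSMUST00000171600), whose first exon of 149 bases has the same edges as exon 3 of the long coding model (ENSMUST00000108180). The long model starts 178631 bases earlier, and the leading short coding model starts at 32238950, close to the long one. The sequence before those starts is not shown here, so the Bach2 window bears on the internal-start model alone. Neither the AP-1 core TGAGTCA nor the antioxidant element core TGACNNNGC, searched on both strands, occurred in any of the 3 windows. These letters were present in 4.46% and 10.2% of the 32851 windows, both of them together in 238, and a match of the second can overlap a reverse-strand match of the first.

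Some properties of the whole set of libraries bear on what follows. Totals ran from 13097498 to 18488733 expected counts, with 9715 to 13061 genes at 10 or more reads per library. The EDA exon of Fn1 should separate the strains, but the estimated share of Fn1 transcripts that held it did not follow the labels. At 22 months this share ran from 0% to 12.6% in EDA-labelled and from 0% to 100% in control-labelled libraries. The 12-month shares ran from 0% to 58.5% and from 0% to 96.2%. They rest on estimated levels of 4 annotated models with the exon and 4 without, not on reads counted over it. Why they did not follow the labels was not tested. Libraries are therefore named by their labels, as EDA-labelled or control-labelled. Reads on ENSMUSG00000119584, a gene without a symbol here, made up 4.82% to 17.3% of EDA-labelled and 10.7% to 32.8% of control-labelled libraries at 22 months, and 3.26% to 16.8% and 11.3% to 31% at 12 months. Astrocyte markers, 7 of 7 tested and led by Gfap, summed to 7154 to 38227 CPM (reads scaled to a fixed library total). The library with the fewest detected genes, 9715, was EDA-labelled replicate 3 at 22 months.

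Bach2 was about 2 to 3 times as abundant in EDA-labelled as in control-labelled libraries at both ages. In TPM, a level scaled for transcript length and library total, Bach2 was 33.55, 40.02 and 52.57 in EDA-labelled libraries at 22 months, against 18.49, 22.12, 9.75, 20.47 and 23.12 in control-labelled libraries. The lowest EDA-labelled library lay above the highest control-labelled one. Libraries of 12-month mice had 50.20, 33.66, 36.11, 97.59 and 76.36 TPM where EDA-labelled, against 13.15, 10.93, 17.35, 23.36 and 26.28 TPM where control-labelled. Again the groups did not overlap, and EDA-labelled replicates 4 and 5 stood above the other 3. These are also the libraries of their group in which Xist, the RNA of the inactive X chromosome, exceeded Y-linked RNA. The sexes were mixed in this sense: Xist exceeded Y-linked RNA in 1 of 3 EDA-labelled and 0 of 5 control-labelled libraries at 22 months, and in 2 of 5 of each label at 12 months. The EDA-labelled one at 22 months was replicate 1, the lowest in Bach2 of its group. Among libraries with more Y-linked RNA, Bach2 was 40.02 and 52.57 TPM in EDA-labelled libraries, against 9.75 to 23.12 TPM in control-labelled libraries at 22 months. At 12 months it was 33.66 to 50.20 TPM, against 17.35 to 26.28 TPM. No overlap was possible in these subsets, because the whole groups did not overlap. The part of sex in the difference was not tested. The mean of Bach2 was 42.05 ± 9.67 TPM (SD, n = 3) for the EDA label and 18.8 ± 5.35 TPM (SD, n = 5) for the control label at 22 months, a ratio of 2.24. For 12-month mice these means were 58.8 ± 27.5 TPM and 18.2 ± 6.54 TPM (SD, n = 5 each), a ratio of 3.23. Because libraries are bulk tissue, fewer cells that express a gene and less RNA per cell cannot be told apart.

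**Figure D1:**
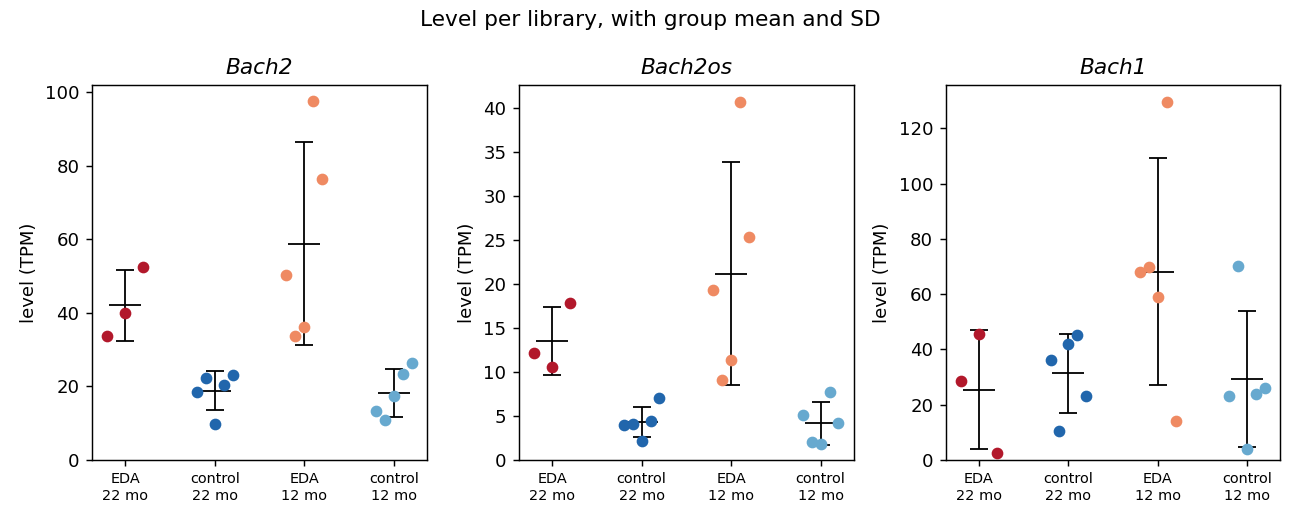
Level in TPM (vertical axes, from 0) of Bach2, Bach2os and Bach1 in each library, grouped by label and age (horizontal axes). Points are libraries and bars give the group mean and SD. For Bach2 and Bach2os every EDA-labelled point lies above every control-labelled point of its age, with means of 42.05 and 18.8 TPM for Bach2 at 22 months, while Bach1 spans 2.44 to 129.37 TPM and its groups overlap.

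Bach2os, the antisense gene, was lower in level and differed by a larger factor. It was 12.16, 10.51 and 17.82 TPM in EDA-labelled libraries at 22 months, against 3.91, 4.09, 2.17, 4.38 and 7.0 TPM in control-labelled libraries. In 12-month mice Bach2os had 19.30, 9.08, 11.32, 40.66 and 25.37 TPM in EDA-labelled libraries, against 5.13, 1.98, 1.83, 7.75 and 4.14 TPM in control-labelled libraries. The groups did not overlap at either age, and the highest library was again EDA-labelled replicate 4 at 12 months. Ratios of the group means were 3.13 at 22 months and 5.08 at 12 months. These values rest on few reads, 71 to 305 in EDA-labelled and 13 to 77 in control-labelled libraries.

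Both genes were chosen for this pattern, so their values are a description and no test is given. Of the 15118 genes that passed the filter, every EDA-labelled library lay above every control-labelled one in TPM for 1.46% at 22 months, for 1.61% at 12 months and for 0.0529% at both ages. That last share is 8 genes: Bach2, Bach2os, Rbm14, Gtf2b, Hspg2, Pxk, Zfp219 and Sept9. On CPM scaled by the trimmed mean of M values (TMM), the shares were 1.31% at 22 months, 0.84% at 12 months and 0.0132% at both, the last being 2 genes, Bach2os and Aff1. These lists were drawn on the same samples that chose both genes, so the shares are background only. Bach2 dropped out on that scale because EDA-labelled replicate 1 at 22 months, at 94.6 CPM, lay below control-labelled replicates 2 and 5, at 103.7 and 96.3 CPM. At 12 months the Bach2 groups stayed apart on that scale, with 98.2 to 248.2 CPM in EDA-labelled and 40.9 to 87.1 CPM in control-labelled libraries.

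In the edgeR fit across all genes, the log2 fold change of Bach2 (EDA-labelled over control-labelled) was 1.01 ± 0.43 (SE) at 22 months and 1.42 ± 0.38 at 12 months. For Bach2os it was 1.67 ± 0.75 at 22 months and 2.06 ± 0.69 at 12 months. When all tested genes were ordered by the smaller of both fold changes, Bach2os stood at rank 126 and Bach2 at rank 368 of 15118, while 23.7% of genes were above 0 and 2.45% above 1 at both ages. The 22-month values depend on 1 library: without EDA-labelled replicate 3 they were 0.55 for Bach2 and 0.96 for Bach2os. Leaving out any other library kept the 22-month value of Bach2 between 0.79 and 1.23.

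**Figure D2:**
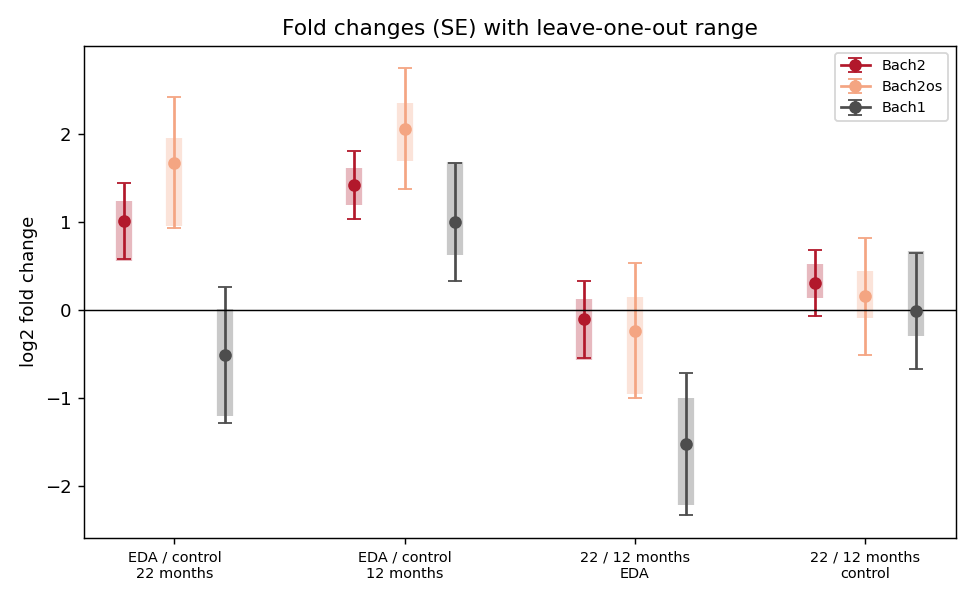
Log2 fold changes (vertical axis) of Bach2, Bach2os and Bach1 from the fit across all genes, for EDA-labelled over control-labelled libraries at each age and for 22 over 12 months within each label (horizontal axis). Points and error bars are estimates and SE, and shaded bars span the values obtained when each library was left out in turn. Bach2 and Bach2os are above 0 for the label at both ages, with 1.01 and 1.67 at 22 months, and near 0 for age.

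Age was not used to choose the genes and was tested within each label. Neither Bach2 nor Bach2os passed the test (edgeR quasi-likelihood, Benjamini-Hochberg adjusted over all 15118 genes, threshold 0.05), and 0% of all genes did, although 753 within EDA-labelled and 530 within control-labelled libraries had an unadjusted p under 0.05. For Bach2 the log2 fold change of 22 over 12 months was -0.11 ± 0.44 (SE) in EDA-labelled libraries, with a 95% interval (14 residual degrees of freedom) from -1.05 to 0.83 and an adjusted p of 1. In control-labelled libraries it was 0.30 ± 0.38, with an interval from -0.51 to 1.11 and an adjusted p of 1. Bach2os had -0.24 ± 0.77 with an interval from -1.88 to 1.41 in EDA-labelled libraries, and 0.15 ± 0.66 with an interval from -1.27 to 1.57 in control-labelled libraries, each with an adjusted p of 1 in edgeR. Changes of about 2 times in Bach2, and of more in Bach2os, lie within these intervals.

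Bach2 and Bach2os varied together between libraries. After group means were taken from log2 CPM, Pearson's r between them over 18 libraries was 0.78, a description only, since both share library, depth and exonic overlap. Bach2os reads equalled 4.87% to 6.83% of Bach2 reads in EDA-labelled and 3.20% to 4.46% in control-labelled libraries at 22 months. The corresponding 12-month ranges were 4.33% to 7.74% and 1.73% to 8.16%, so in reads the groups overlapped at 12 months and not at 22 months. Both genes were chosen by label, so this ratio is a description only. In TPM the same ratio was 26.3% to 36.2% in EDA-labelled and 18.5% to 30.3% in control-labelled libraries at 22 months, and 26.98% to 41.7% and 10.5% to 39.01% at 12 months, so in TPM the groups overlapped at both ages. Bach2it1, another annotated RNA in a Bach2 intron on the sense strand, had 0 reads in 15 of 18 libraries and at most 3. The genes most like Bach2 by the same correlation, among 7220 compared, were Akap13 (0.90), Tiam1 (0.87), Ptpn9 (0.86), Adra1b (0.85) and Esyt1 (0.84), and Bach2os ranked 16. Bach1 stood at -0.36 against Bach2. Those most like Bach2os were Dynll1 (0.88), Ddr2 (0.86), Rnf19a (0.85), Trip6 (0.83) and Inpp5b (0.83), and those most like Bach1 were Rtn2 (0.89), Crebrf (0.88), Gnl3l (0.88), Cblb (0.88) and Fubp3 (0.86).

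**Figure D3:**
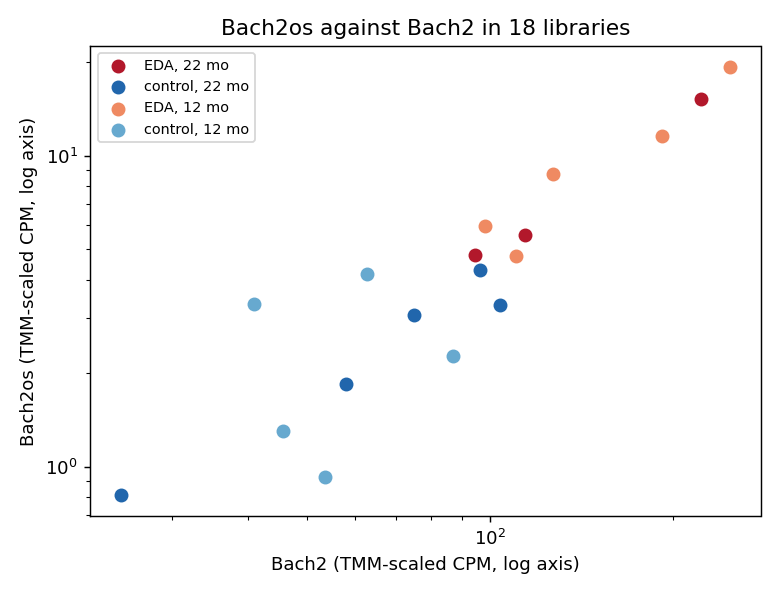
Bach2os (vertical axis) against Bach2 (horizontal axis) in TMM-scaled CPM, both on log axes, with 1 point per library coloured by label and age. Libraries high in one tend to be high in the other, from control-labelled replicate 3 at 22 months (24.7 CPM of Bach2) to EDA-labelled replicate 4 at 12 months (248.2 CPM of Bach2).

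The labels lay apart for the main transcript model of Bach2 and overlapped for the next most abundant, a difference that was not tested. Means of both models were higher for the EDA label at each age. The short coding model of Bach2 (ENSMUST00000037416, 3462 bases) leaves out 369 bases of a long internal exon and ends in a last exon of 1383 bases, against 6288 bases in the long model. Its coding length is 2148 bases, against 2517 in the long and the internal-start models. This short model was 25.43, 29.52 and 39.95 TPM in EDA-labelled libraries at 22 months, against 11.42, 13.12, 8.47, 13.46 and 11.66 TPM in control-labelled libraries. Its 12-month levels were 36.50, 23.92, 29.78, 84.56 and 65.15 TPM in EDA-labelled libraries, against 10.97, 7.30, 14.63, 20.21 and 19.15 TPM in control-labelled libraries. The groups of this model, which carries most of the gene total that chose Bach2, did not overlap at either age. Because of that choice this is a description only, and no share of all transcript models with groups apart was computed.

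The groups of the internal-start model, of 8493 bases, did overlap, with 6.71 to 9.46 TPM in EDA-labelled and 1.28 to 9.0 TPM in control-labelled libraries at 22 months. They also overlapped at 12 months, with 3.63 to 7.72 TPM in EDA-labelled and 0 to 5.79 TPM in control-labelled libraries. Means of this model were higher for the EDA label, 7.66 against 5.70 TPM at 22 months and 6.23 against 2.63 TPM at 12 months. The highest Bach2 library, EDA-labelled replicate 4 at 12 months, had the lowest level of this model in its group. The long model was lower, with means of 1.37 and 0.65 TPM at 22 months and of 3.34 and 0.99 TPM at 12 months for the EDA and control labels. As background, RSEM divides reads among overlapping models by likelihood, so levels of single models are estimates.

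The share of Bach2 TPM on the short coding model is a measure within the gene that the choice of genes did not use. At 22 months this share was 75.2% ± 1.22 (SD, n = 3) for the EDA label and 64.8% ± 13.5 (SD, n = 5) for the control label (exact two-sided permutation test, p = 0.25, adjusted p = 0.4 over 8 tests of this kind). The 12-month shares were 79.7% ± 7.26 and 78.8% ± 8.53 (SD, n = 5 each, exact permutation p = 0.794, adjusted p = 0.794). Neither difference was larger than the spread between libraries. The difference of 22 less 12 months in this share was -13.96 percentage points in control-labelled libraries (exact permutation p = 0.0873, adjusted p = 0.349). It was -4.46 points in EDA-labelled libraries (exact permutation p = 0.357, adjusted p = 0.449). Of Bach2os TPM, the 687-base model held 60.1% to 94.01% over all libraries and a model of 1661 bases the rest, while a model of 234 bases was listed at 0 in all 18.

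**Figure D4:**
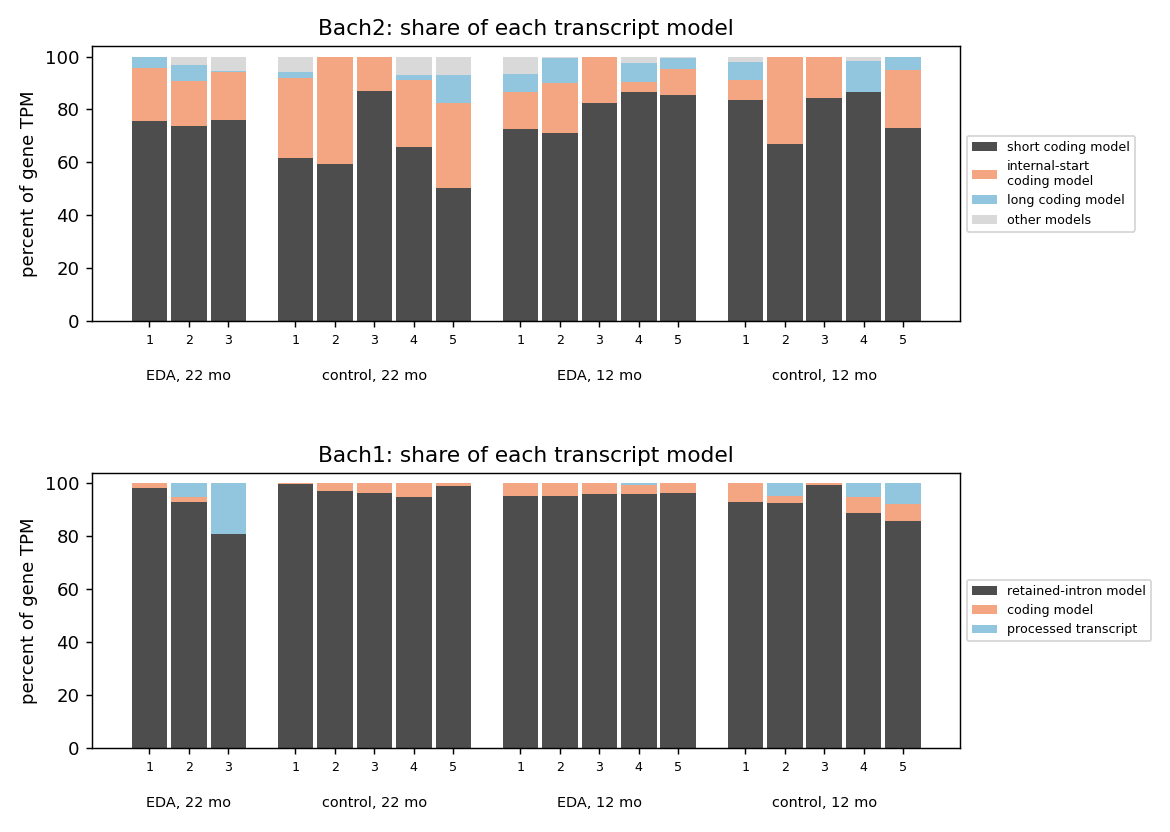
Percent of each gene's TPM (vertical axes, from 0) estimated for each transcript model in every library, ordered by label and age with replicate numbers on the horizontal axes, for Bach2 above and Bach1 below. The short coding model leads Bach2 with 50.4% to 86.9%, and the retained-intron model holds 80.8% to 99.8% of Bach1.

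Bach1, on chromosome 16 from 87698945 to 87733346 of GRCm38, had no level that set the labels apart. In 22-month mice Bach1 had 28.40, 45.47 and 2.44 TPM in EDA-labelled libraries, against 36.18, 10.50, 41.82, 45.05 and 23.01 TPM in control-labelled libraries. Its 12-month levels were 67.83, 69.90, 59.07, 129.37 and 14.15 TPM in EDA-labelled libraries, against 22.99, 70.32, 3.75, 23.98 and 25.82 TPM in control-labelled libraries. The groups overlapped at both ages, and the spread within a group reached 18.8 times. Its log2 fold change for the label was -0.52 ± 0.78 (SE) at 22 months, with a 95% interval from -2.18 to 1.15, and 1.00 ± 0.67 at 12 months, with an interval from -0.43 to 2.43. Neither passed the edgeR test (unadjusted p = 0.512 and 0.15, adjusted p = 1 for both). Without EDA-labelled replicate 3 the 22-month value was 0.003, and without control-labelled replicate 2 the 12-month value was 1.68. The difference between ages in the label effect was -1.51 ± 1.03 (edgeR, unadjusted p = 0.157, adjusted p = 1). For Bach2 and Bach2os that difference was -0.41 and -0.39, given without a test because their label effects chose them.

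The largest Bach1 estimate was for age within EDA-labelled libraries, -1.53 ± 0.81 (edgeR, unadjusted p = 0.0737, adjusted p = 0.961), and within control-labelled libraries it was -0.01 ± 0.66 (adjusted p = 1). Library complexity moved with Bach1: less group means, Pearson's r between its log2 CPM and the number of genes with at least 10 reads was 0.60 over 18 libraries, against -0.61 for Bach2 and -0.49 for Bach2os. Its part in the results was not tested.

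Most of the Bach1 signal was assigned to a model that is annotated as a retained intron and not as coding. This model (ENSMUST00000156958, 2210 bases) lacks the last exon of 3910 bases that ends the coding model (ENSMUST00000026703, coding length 2217 bases). At 22 months the retained-intron model held 90.7% ± 9.01 of Bach1 TPM (SD, n = 3) for the EDA label and 97.5% ± 1.91 (SD, n = 5) for the control label (exact permutation p = 0.143, adjusted p = 0.381). Its 12-month shares were 95.7% ± 0.424 and 92.02% ± 5.10 (SD, n = 5 each, exact permutation p = 0.198, adjusted p = 0.397). The differences of 22 less 12 months were -4.999 points in EDA-labelled and 5.48 points in control-labelled libraries (exact permutation p = 0.393 and 0.0635, adjusted p = 0.449 and 0.349). Without control-labelled replicate 3, the 12-month difference was 5.58 percentage points in place of 3.71, with an unadjusted exact permutation p of 0.0159. Leaving out any other library gave an exact permutation p from 0.238 to 0.397. On expected counts in place of TPM the 12-month difference was 1.67 points (exact permutation p = 0.635). By gene total, Bach2 was above Bach1 in TPM in 7 of 18 libraries, but summed over coding models alone it was above in 18 of 18. Coding Bach2 ran from 33.56 to 49.70 TPM in EDA-labelled and from 9.75 to 22.12 TPM in control-labelled libraries at 22 months, and coding Bach1 from 0 to 0.85 TPM and from 0.08 to 2.23 TPM. At 12 months coding Bach2 ran from 33.43 to 95.24 and from 10.93 to 26.29 TPM in EDA-labelled and control-labelled libraries, and coding Bach1 from 0.53 to 4.36 and from 0.02 to 1.86 TPM.

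Genes of the proteins that pair or compete with BACH factors were not called. Of 8 listed partners and rivals (Mafk, Mafg, Maff, Nfe2, Nfe2l1, Nfe2l2, Nfe2l3 and Keap1), 7 were tested and 0 passed in any of the 4 comparisons, as for all genes, of which 0% passed at either age (599 at 22 and 689 at 12 months had an unadjusted p under 0.05). The median log2 fold change for the label was 0.31 at 22 and -0.06 at 12 months, beside -0.07 and -0.01 over all tested genes. Nfe2l1, a factor that drives proteasome genes, was the most abundant, at 1097.02 to 2262.16 TPM in 17 libraries and 46.81 TPM in EDA-labelled replicate 4 at 12 months. That library also had the lowest Foxo1 and Rif1, both named below. Nfe2l2, which encodes NRF2, the activator that BACH1 competes with, had -1.26 ± 0.67 (SE) at 22 and -0.53 ± 0.55 at 12 months (edgeR, unadjusted p = 0.0731 and 0.346, adjusted p = 1 for both). At 22 months EDA-labelled replicate 3 had 0.33 TPM of Nfe2l2 on 9 reads, against 7.54 and 12.57 TPM in replicates 1 and 2. Mafg, which encodes a small Maf partner, had -0.24 ± 0.56 at 22 and -0.001 ± 0.483 at 12 months. Nfe2l3, a further cap'n'collar factor, was listed at 0 in 15 of 18 libraries and Nfe2 in all, and Maff averaged 0.487 TPM.

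Corepressors and degraders of BACH proteins were likewise not called: 7 of 7 were tested and 0 passed, while 0% of all genes passed. For the label 3 of 7 were above 0 at 22 months and 5 of 7 at 12 months. Their medians were -0.006 and 0.42, beside -0.07 and -0.01 over all tested genes. Rcor1, a corepressor of the CoREST complex, had log2 fold changes of -0.40 ± 0.41 at 22 and 0.44 ± 0.35 at 12 months, and Fbxl17, a substrate receptor of a ubiquitin ligase that removes BACH1, had -0.72 ± 0.84 and 0.93 ± 0.71. Ncor1, a corepressor scaffold for histone deacetylases, had -0.49 ± 0.40 and 0.05 ± 0.34, and Rif1, a chromatin protein of replication timing, had 0.09 ± 0.56 and -0.46 ± 0.49.

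Heme and antioxidant genes, the class that BACH factors repress and NRF2 activates, had 20 of 20 members tested and 0 called. For the label 10 of 20 were above 0 at 22 months and 13 of 20 at 12 months, with medians of -0.09 and 0.12. Over all tested genes 0% were called, and the label medians were -0.07 and -0.01. Hmox1, which encodes heme oxygenase 1, was near the limit of detection, at 0 to 0.75 TPM in EDA-labelled and 0.07 to 2.02 TPM in control-labelled libraries at 22 months. Among 12-month libraries it was 0 to 1.85 TPM where EDA-labelled and 0 to 0.21 TPM where control-labelled, on at most 28 and 3 reads. Nqo1, a quinone reductase, was listed at 0 in all 5 control-labelled libraries and had 0, 10 and 1 reads in EDA-labelled libraries at 22 months, too few for a fold. Gclm, the modifier subunit of the enzyme that starts glutathione synthesis, was 274.16, 216.50, 299.63, 542.40 and 333.66 TPM in EDA-labelled libraries at 12 months, against 178.75, 160.37, 208.09, 261.29 and 160.33 TPM in control-labelled libraries. The groups overlapped, and its log2 fold change was 0.62 ± 0.26 (edgeR, unadjusted p = 0.0263, adjusted p = 1). Slc7a11, the cystine importer, had -2.19 ± 0.88 at 12 months (edgeR, unadjusted p = 0.0219, adjusted p = 1), where control-labelled replicate 5 alone held 23.28 TPM. Ftl1, the ferritin light chain, was the most abundant of the class, at 251.21 to 540.15 TPM, with 0.14 ± 0.25 at 22 and -0.12 ± 0.22 at 12 months. Within EDA-labelled libraries 4 of 20 members were above 0 for 22 over 12 months, with a median of -0.48 beside -0.06 over all genes.

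AP-1 subunits, which share DNA sites with BACH factors, had 7 of 8 members tested and 0 called by edgeR, which called 0% of all genes. At 12 months 6 of 7 were above 0 for the label, with a median of 0.90, and at 22 months 3 of 7, with a median of -0.03. Over all tested genes the label medians were -0.01 at 12 and -0.07 at 22 months. Fos, an immediate early AP-1 subunit, was 20.01, 10.93, 17.55, 55.63 and 16.44 TPM in EDA-labelled libraries at 12 months, against 9.44, 5.29, 2.15, 1.72 and 8.64 TPM in control-labelled libraries. Jund, the most abundant subunit, was 73.46, 81.45, 75.48, 151.83 and 84.09 TPM in EDA-labelled libraries at 12 months, against 44.46, 41.08, 53.62, 46.07 and 30.27 TPM in control-labelled libraries. For both, the lowest EDA-labelled library lay above the highest control-labelled one at 12 months, as for 1.61% of genes. The log2 fold changes were 2.08 ± 0.67 for Fos and 0.90 ± 0.32 for Jund (edgeR, unadjusted p = 0.00533 and 0.0104, adjusted p = 1 for both). In 22-month mice the groups of both genes overlapped, with 0.20 ± 0.73 for Fos and -0.03 ± 0.37 for Jund. Fosl1, a Fos relative, was 4.46, 0.37 and 16.13 TPM in EDA-labelled libraries at 22 months, against 0.05, 1.62, 0.06, 0.28 and 2.11 TPM in control-labelled libraries. These overlapped (log2 fold change 2.69 ± 1.38, edgeR, unadjusted p = 0.0656, adjusted p = 1).

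Fosl2, another Fos family subunit, had the smallest p of any listed gene, for age within EDA-labelled libraries. It was 1.13, 2.91 and 1.60 TPM at 22 months, against 11.65, 14.14, 17.86, 7.70 and 7.16 TPM at 12 months. The groups did not overlap, as for 2.59% of genes with every 22-month library lower in TPM, and the log2 fold change was -2.31 ± 0.575 (edgeR, unadjusted p = 0.000652, adjusted p = 0.961). DESeq2 called it, with -2.28 and an adjusted p of 0.0102, as 1 of 49 genes it called in that comparison.

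**Figure D5:**
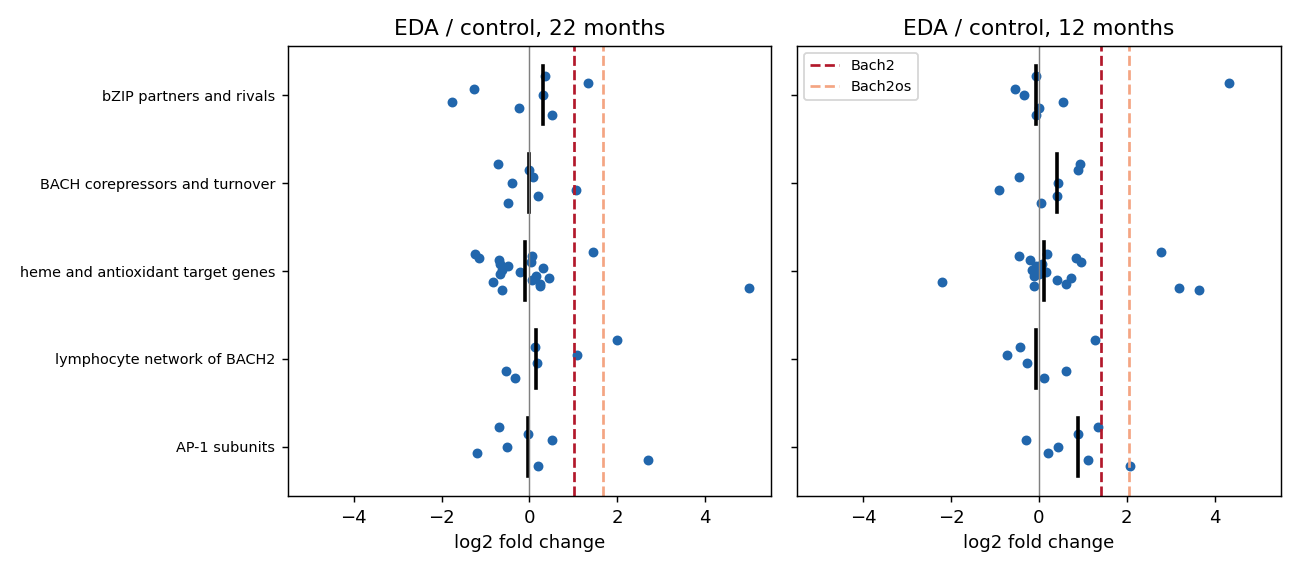
Log2 fold changes (horizontal axes) of tested members of 5 lists of related genes (rows) for EDA-labelled over control-labelled libraries at 22 months (left) and 12 months (right). Each point is a gene, black bars are list medians and dashed lines mark Bach2 and Bach2os. Medians lie between -0.09 and 0.31 at 22 months, and the AP-1 median is 0.90 at 12 months. Over all tested genes the medians are -0.07 at 22 and -0.01 at 12 months.

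Of 13 listed genes of the network in which BACH2 acts in lymphocytes, 6 were tested and 0 called. Their label medians were 0.14 at 22 and -0.07 at 12 months. For all tested genes 0% were called, with label medians of -0.07 and -0.01. Irf4, Pax5, Batf, Batf3, Gata3, Ccr4 and Cdkn2a did not pass the filter on low counts. Foxo1, a transcription factor known upstream of Bach2 in lymphocytes, was 57.53 to 158.12 TPM in 17 libraries and 15.84 TPM in EDA-labelled replicate 4 at 12 months, with 0.12 ± 0.43 at 22 and -0.42 ± 0.38 at 12 months. Ebf1, an early B cell factor that stromal cells also express, was 24.94, 24.14 and 45.97 TPM in EDA-labelled libraries at 22 months, against 24.38, 9.68, 8.53, 3.43 and 24.30 TPM at 12 months. The lowest at 22 months lay just under the highest at 12 months. Its log2 fold change for age there was 1.69 ± 0.62 (edgeR, unadjusted p = 0.0123, adjusted p = 0.961). Bcl6, a repressor of germinal centre B cells, had 0.17 ± 0.58 at 22 and -0.27 ± 0.50 at 12 months for the label, and Xbp1, a factor of secretory cells, had -0.54 ± 0.84 and 0.63 ± 0.71.

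Lymphocyte markers were also summed. The B cell markers Cd79a, Cd79b, Ms4a1, Igkc and Fcmr were at 0 in all 18 libraries. The B cell list summed to 1.41 to 6.45 CPM in EDA-labelled and 0 to 5.5 CPM in control-labelled libraries at 22 months, and to 0.352 to 16.3 CPM and 0 to 2.84 CPM at 12 months. The 9 T cell markers, of which Cd3e was the most abundant, summed to 6.30 to 23.0 CPM and 4.78 to 31.9 CPM at 22 months, and to 4.44 to 14.1 CPM and 6.71 to 29.5 CPM at 12 months. The highest T cell sum was in control-labelled replicate 3 at 22 months, where Bach2 was at its lowest, 24.7 TMM-scaled CPM. Their part in the Bach2 values was not tested.

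Other marker lists varied by group and by single library. Neuron markers, 7 of 8 tested, summed to 68.4 to 131.3 CPM in EDA-labelled and 65.5 to 182.8 CPM in control-labelled libraries at 22 months. At 12 months their sums were 73.5 to 111.7 CPM and 78.4 to 129.7 CPM, so they overlapped at both ages. Microglia, oligodendrocyte precursor, fibroblast and pigment cell lists were also summed and are not reported here. Retinal ganglion cell markers, 6 of 6 tested and led by Thy1 and Rbpms, summed to 49.1 to 68.4 CPM in EDA-labelled and 30.3 to 53.3 CPM in control-labelled libraries at 22 months, and to 40.7 to 70.1 CPM and 27.6 to 57.2 CPM at 12 months. The sums overlapped at both ages. Pou4f1, a defining transcription factor of these cells, was at 0 in all 3 EDA-labelled libraries at 22 months and in no other library. It was near the limit of detection throughout, at no more than 2.90 CPM in any library. Sncg, another of their markers, was at 0 in 4 of 18 libraries. At 22 months skeletal muscle markers, 2 of 6 tested, summed to 4.44 to 252.7 CPM in EDA-labelled and 0 to 1.71 in control-labelled libraries. They summed to 1.25 to 6.55 CPM and 0 to 8.84 CPM at 12 months, with Mylpf at 0 throughout. The 22-month sums did not overlap, but were low in EDA-labelled replicates 2 and 3, at 4.44 and 7.57 CPM. Among single genes, 1.31% had every EDA-labelled library higher at 22 months in TMM-scaled CPM. The highest muscle sum was in EDA-labelled replicate 1, the library with the lowest Bach2 of its group. Endothelial markers, 6 of 6 tested, summed to 228.8 to 289.6 CPM and 116.5 to 261.8 CPM at 22 months, and to 128.9 to 652.4 CPM and 113.4 to 287.6 CPM at 12 months. Astrocyte markers summed to 7154 to 15903 CPM and 8587 to 11374 CPM at 22 months, and to 12611 to 38227 CPM and 7451 to 14620 CPM at 12 months. The highest astrocyte, endothelial and ganglion cell sums were all in EDA-labelled replicate 4 at 12 months, the library with the most Bach2 and Bach2os. Oligodendrocyte markers, 7 of 7 tested, summed to 842.5 to 4312 CPM in EDA-labelled and 845.9 to 29342 CPM in control-labelled libraries at 22 months, and to 934.4 to 27571 CPM and 321.8 to 8818 CPM at 12 months. The high sums were in control-labelled replicate 3 at 22 months and EDA-labelled replicate 3 at 12 months, the libraries with the lowest Bach2 of their groups in TMM-scaled CPM. Without the first the 22-month label value of Bach2 was 0.79, and without the second the 12-month value was 1.55. Photoreceptor markers, 6 of 8 tested, summed to 23.9 to 92.9 CPM in EDA-labelled libraries at 22 months, against 2693 CPM in control-labelled replicate 2 and 1.70 to 15.6 CPM in the other 4. At 12 months they summed to 4.29 to 28.7 CPM in EDA-labelled and 3.33 to 11.3 CPM in control-labelled libraries. Control-labelled replicate 2 had the highest Bach2 of its group in TMM-scaled CPM, and without it the 22-month value of Bach2 was 1.18. The part of these markers in the Bach2 difference was not tested. With the share of ENSMUSG00000119584 as a term in the fit, the label fold changes were 0.94 and 1.36 for Bach2, and 1.18 and 1.68 for Bach2os, at 22 and 12 months. With Xist and Y-linked expression as a term they were 1.00 and 1.41 for Bach2, and 1.62 and 1.98 for Bach2os.

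The genes beside Bach2 on chromosome 4 were not called. Of the 5 nearest tested genes on each side, 0 of 10 were called in any comparison, as were 0% of all genes. For the label, 4 of 10 were above 0 at each age. Their median log2 fold change was -0.16 at 22 and -0.10 at 12 months, beside -0.07 and -0.01 over all genes. Map3k7, a kinase of inflammatory signalling that lies before Bach2, had -0.65 ± 0.79 at 22 and 0.12 ± 0.67 at 12 months. Casp8ap2 and Mdn1, the next genes after it, had 1.395 ± 1.83 and -0.17 ± 0.44 at 22 months, and -1.29 ± 1.64 and 0.13 ± 0.38 at 12 months. Casp8ap2 was at or under 2.97 TPM.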

How the data were processed

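RNA of 18 optic nerve head libraries was made into cDNA with the SMART-Seq v4 kit, prepared with Nextera XT and sequenced in read pairs on an Illumina NovaSeq, per the labels' protocols. Per the labels' protocols, the authors used STAR to align and RSEM to estimate levels. The build was GRCm39, per the submitters' processing notes. Versions and annotation: not given in the sources used here. The deposited files hold estimated expected counts per gene and transcript, TPM, and the percent of a gene's TPM on each transcript, per the file headers. That percent was recomputed here from TPM. Symbols, gene structures and promoters came from GENCODE M21 and RefSeq tables of GRCm38, another build, by identifier (52083 of 55416 had a symbol). Of gene values above 0, 13.5% were not whole, and counts were rounded.

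Genes were filtered with filterByExpr (15118 left), scaled by TMM and fitted with 4 group means in edgeR 4.0.16 (robust quasi-likelihood, two-sided, Benjamini-Hochberg). DESeq2 1.42.0, limma 3.58.1 voom, other filters, covariates and leaving out each library were alternatives. The scripts were checked on simulated data. Shares were compared by exact permutation tests, whose smallest possible p is 0.0357 for 3 against 5 and 0.00794 for 5 against 5 libraries. Named genes were the 3 genes, up to 6 of each list (the 4 with the smallest p and the 2 most abundant), the neighbours and the 5 most alike. Some named genes are not reported here. The genes and lists were chosen with earlier results of these data known. Replicates were numbered in accession order. Intervals are t-based and cover the spread between libraries only.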

Additional observations from a re-analysis of the deposited data

How the results depend on the processing

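The label fold changes of Bach2 and Bach2os kept their sign in all alternatives run and moved by less than the SD between libraries. Both genes were chosen for that sign in these same libraries, so a kept sign is a description and not support. Bach2 ranged from 0.55 to 1.46 at 22 months and from 1.12 to 1.61 at 12 months, and Bach2os from 0.96 to 2.10 and from 1.57 to 2.35. Values near 0 changed sign, and the cause was not tested. With voom, Bach2 and Bach2os for age in control-labelled libraries were -0.058 and -0.304, and Bach1 0.323. Bach1 there was 0.082 with the ENSMUSG00000119584 term, 0.437 with the Xist and Y term and 0.188 without 3 libraries together (EDA-labelled replicate 1 and control-labelled replicate 2 at 22 months, EDA-labelled replicate 4 at 12 months). Without those 3, age in EDA-labelled libraries was 0.41 for Bach2 and 0.48 for Bach2os. On expected counts in place of TPM, the share of the Bach1 retained-intron model differed by 1.43 percentage points for the label at 22 months, against -6.77.

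Leaving out 1 library at a time gave these lowest and highest values. For the label, Bach2 had 0.55 and 1.23 at 22 and 1.19 and 1.61 at 12 months, Bach2os 0.96 and 1.955, and 1.68 and 2.35, and Bach1 -1.21 and 0.003, and 0.62 and 1.68. For age, Bach2 had -0.57 and 0.13 in EDA-labelled and 0.13 and 0.52 in control-labelled libraries, Bach2os -0.95 and 0.14, and -0.09 and 0.44, and Bach1 -2.23 and -1.01, and -0.30 and 0.67. The difference between ages in the label effect of Bach1 had -2.21 and -0.99. Shares differed by 6.77 and 15.9 points for the short coding model of Bach2 at 22 and -2.13 and 3.02 at 12 months, and by -10.6 and -1.81, and 2.17 and 5.58, for the retained-intron model of Bach1. The number of genes called ran from 0 to 1 at 12 months (1 without EDA-labelled replicate 4) and stayed at 0 in the other comparisons.

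DESeq2 called 39 genes for the label at 22 and 32 at 12 months, and 49 and 31 for age in EDA-labelled and control-labelled libraries, against 0 in edgeR, and 1 AP-1 subunit among the 49. Voom called 1 and 2 for the label at 22 and 12 months, and a filter of at least 2 log2 CPM called 1 at 12 months. No paired analysis was possible because nothing in the labels matches libraries between groups. Bach2os values rest on 13 to 305 reads a library, so counting error adds to their spread between libraries.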
